A study of Mus musculus with 9 samples.

Results

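The transcripts of 8 genes that encode the miRNA processing machinery were followed in mouse embryonic stem (ES) cells of 3 genotypes. The genes were Dgcr8, Drosha, Ddx5, Ddx17, Xpo5, Dicer1, Tarbp2 and Prkra. They were chosen by name for their place in miRNA biogenesis, and every row of the deposited table to which the platform annotation gives 1 of these symbols was taken. The transcript clusters with 1 gene symbol that were kept for the tests name 19631 distinct genes. The 8 genes were measured by 10 transcript clusters, since Ddx5 and Tarbp2 have 2 clusters each. Levels are log2 values, so that a difference of 1 stands for a doubling.

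Total RNA of a wild-type ES line (WT, named v6.5 in the study's methods), of Dgcr8 knockout (Dgcr8 KO) cells and of Dicer knockout (Dicer KO) cells was hybridised to 9 Affymetrix mouse gene arrays, 3 per genotype. The labels describe cells of each genotype plated in triplicate and the methods describe biological replicates, so the p-values may measure only the technical spread between dishes. The Dgcr8 KO allele lacks an exon, which leaves a premature stop codon and a transcript open to nonsense-mediated decay. Whether each knockout line is a single clone, and at which passage it was used, is not given in the sources used here, and line and genotype cannot be told apart.

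MiRNAs are cut from long primary transcripts in steps. In the nucleus the Microprocessor, in which the RNA-binding protein Dgcr8 positions the RNase III enzyme Drosha, frees a hairpin from the primary transcript, and the DEAD-box helicases Ddx5 (p68) and Ddx17 (p72) help with a subset of substrates. Exportin-5, the product of Xpo5, carries the hairpin to the cytoplasm together with Ran-GTP, where Dicer, bound by Trbp (Tarbp2) or Pact (Prkra), trims it to the duplex from which an Argonaute protein takes 1 strand.

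The Dgcr8 transcript itself is a substrate of the Microprocessor, which is known to cut a hairpin in its 5′ untranslated region and another in its coding region. RefSeq names a miRNA for each. Both lie inside Dgcr8 on the minus strand of chromosome 16 in GRCm38.p6, Mir1306 from 4934 to 5012 bases and Gm24572, the locus of miR-3618, from 4614 to 4701 bases downstream of the 5′ end of the gene, introns included. The coding-region hairpin at chr16:18284239-18284317 is shown whole, because it is the structure that the Microprocessor meets in the messenger, with both mature arms in capitals. RNAfold gave it a folding energy of -29.8 kcal/mol with 23 base pairs.
Mir1306 hairpin: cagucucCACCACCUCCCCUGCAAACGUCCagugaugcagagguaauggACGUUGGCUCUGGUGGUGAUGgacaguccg
The mature arms of both Dgcr8 hairpins follow, 5′ to 3′, with the seed (bases 2 to 8) in capitals, because the seed is what would set their targets. The arms of miR-3618 lie at chr16:18284602-18284623 for 5p and at chr16:18284562-18284583 for 3p.
miR-1306-5p: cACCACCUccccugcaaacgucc
miR-1306-3p: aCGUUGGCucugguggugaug
miR-3618-5p: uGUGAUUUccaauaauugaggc
miR-3618-3p: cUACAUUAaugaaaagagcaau
In Xpo5, on the plus strand of chromosome 17, Mir693 lies at chr17:46231531-46231619. It is shown because it is the hairpin within a processing factor that has a transcript cluster of its own on these arrays.
miR-693-5p: cAGCCACAuccgaaaguuuuc
miR-693-3p: gCAGCUUUcagauguggcuguaa
With the Mir3064 hairpin in Ddx5, 3 of the 8 genes hold 4 annotated hairpins, and the 8 mature arms have 8 different seeds.

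The identity of the arrays was checked before the comparisons. Pearson's r across transcripts, which are not independent replicates, was 0.9961 to 0.9983 within a genotype and 0.9777 to 0.9908 between genotypes. The ES cell markers Pou5f1 and Nanog were at mean levels of 12.38 and 11.49 in WT cells, 12.56 and 12.26 in Dgcr8 KO cells, and 12.8 and 12.59 in Dicer KO cells. Of 14 clusters of ES cell markers, 7 were called higher and 1 lower in Dgcr8 KO, and 9 higher and 2 lower in Dicer KO, where 15.7% and 17.3% and then 17.8% and 19.1% of all transcripts were. Utf1 was the marker called lower in both mutants, at -0.45 and -0.51, and 1 of the 2 Dppa4 clusters was the other in Dicer KO, at -0.22. The summed linear level of the 14 ran from 39300 to 41300 in WT, from 45900 to 47300 in Dgcr8 KO and from 50600 to 50900 in Dicer KO. The summed level of 12 feeder fibroblast markers was 930 to 1080 in WT, 932 to 1050 in Dgcr8 KO and 859 to 939 in Dicer KO, that of 9 clusters of primitive endoderm markers 623 to 687, 563 to 616 and 524 to 536, and that of 7 trophoblast markers 3360 to 3610, 1640 to 1680 and 2740 to 2850. In the primitive endoderm list 1 of the 2 Dab2 clusters had the lowest ratio, at -1.13 in Dgcr8 KO and -1.15 in Dicer KO. The other Dab2 cluster was called in neither, at 0.24 and -0.09. Gata4 was called higher in Dgcr8 KO (0.35) and Sox7 lower in Dicer KO (-0.31), and the rest of that list was not called. In the trophoblast list the keratins Krt18 and Krt8 had the lowest ratios, at -2.0 and -1.42 in Dgcr8 KO against -0.52 and -0.45 in Dicer KO. The other markers of that list were at -0.24 to 0.03 and at -0.22 to 0.41, with Cdx2 called lower in Dgcr8 KO and Elf5 called higher in Dicer KO. The part of these marker shifts in the values below was not tested, and in bulk RNA fewer cells of a type and less RNA per cell cannot be told apart.

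In Dgcr8 KO cells, apart from Dgcr8 itself, Xpo5, Tarbp2 and Prkra were lower than in WT, whereas Dicer1 and 1 of the 2 Ddx5 clusters were higher. In Dicer KO cells, apart from Dicer1 itself, Xpo5 and Tarbp2 were lower and Dgcr8 was higher. Drosha and Ddx17 passed the test in no comparison. Counted as clusters, 2 of 10 were called higher in Dgcr8 KO, where 15.7% of all 22980 transcripts tested were, and 5 were called lower, against 17.3% of all transcripts. In Dicer KO, 1 was called higher, against 17.8% of all transcripts, and 4 were called lower, against 19.1%. The lower counts include the deleted gene of each mutant, whose fall the knockout sets, and both clusters of Tarbp2. Counted as genes, 4 were lower in Dgcr8 KO and 3 in Dicer KO, the deleted gene included. The medians that follow include it too. The median log2 ratio of the 10 clusters was -0.21 in Dgcr8 KO, against -0.01 over all transcripts, and -0.07 in Dicer KO, against -0.06. A call here is a Benjamini-Hochberg adjusted p under 0.05 in a limma fit to all 9 arrays, and both mutants were compared with the same 3 WT arrays.

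**Figure D1:**
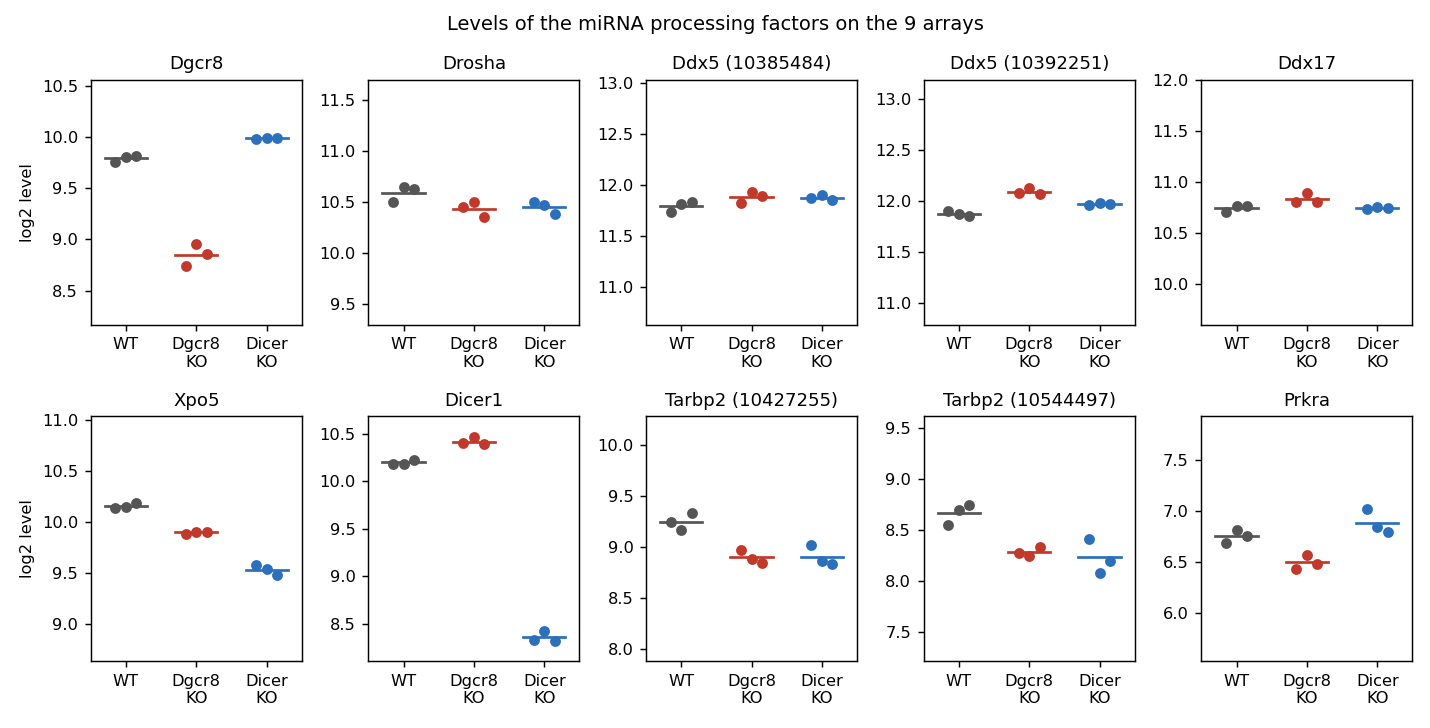
Log2 level of each processing factor (vertical axes, all spanning at least 2.4 units) on the 3 arrays of each genotype, 1 point per array in replicate order, with a line at the genotype mean; Ddx5 and Tarbp2 have 1 panel for each of their 2 transcript clusters. Dgcr8 is lowest in Dgcr8 KO (8.74 to 8.96), Dicer1 in Dicer KO (8.32 to 8.43), and Xpo5 steps down from WT through Dgcr8 KO to Dicer KO.

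Dgcr8, on chromosome 16, is the deleted gene of 1 mutant and serves as its check. Its log2 level was 9.76, 9.81 and 9.82 in WT cells, 8.74, 8.96 and 8.86 in Dgcr8 KO cells, and 9.98, 9.99 and 9.99 in Dicer KO cells. The 3 genotypes did not overlap, with Dgcr8 KO lowest and Dicer KO highest. In Dgcr8 KO it was 0.94 ± 0.0586 (SE) below WT on the log2 scale, or 52.0% of the WT level (ratio -0.94, 95% interval -1.08 to -0.81, adjusted p = 2.35e-06). The cluster summarises probes along the transcript, and which of them lie in the deleted exon was not analysed, so the remaining signal says nothing of a functional messenger.

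In Dicer KO cells, which keep the Microprocessor, Dgcr8 was 114% of the WT level (log2 ratio 0.19, interval 0.06 to 0.32, adjusted p = 0.0306). The 3 Dicer KO values lay within 0.01 of each other and all lay above the highest WT value. This call rested on every array of both groups. Leaving out any 1 WT or Dicer KO array gave a ratio of 0.17 to 0.20 with an adjusted p of 0.0553 to 0.0793. SAM, the study's test, was written anew here rather than run in the study's package, and this version gave 0.103. Through a large added constant, this version weighed mainly the size of the ratio against WT. Between the mutants Dgcr8 differed by -1.13 (adjusted p = 2.13e-06), a contrast that the deletion itself enters.

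Drosha, on chromosome 15, encodes the nuclear RNase III that makes the cut. Its level was 10.50, 10.64 and 10.62 in WT cells, 10.45, 10.50 and 10.35 in Dgcr8 KO cells, and 10.50, 10.47 and 10.38 in Dicer KO cells. The means of both mutants were below that of WT, but the lowest WT array stood at the same value, to 2 decimals, as the highest array of each mutant. The log2 ratio was -0.15 in Dgcr8 KO (interval -0.29 to -0.02, adjusted p = 0.0882) and -0.14 in Dicer KO (interval -0.27 to 0.0015, adjusted p = 0.115), and the mutants differed by -0.02 (interval -0.16 to 0.12, adjusted p = 0.863). Without WT replicate 1, the lowest WT array, the ratio in Dgcr8 KO was -0.20 with an adjusted p of 0.0373. With array weights Drosha also passed in each mutant (adjusted p = 0.0254 and 0.0316), and in Dicer KO after a repeated quantile normalization (0.0286).

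Ddx5, the p68 helicase, is on chromosome 11. Its cluster 10392251 was at 11.90, 11.87 and 11.85 in WT cells, 12.08, 12.12 and 12.07 in Dgcr8 KO cells, and 11.96, 11.98 and 11.97 in Dicer KO cells. The 3 genotypes did not overlap, and Dgcr8 KO was highest. The ratio was 0.22 in Dgcr8 KO (116% of WT, interval 0.13 to 0.31, adjusted p = 0.00254) and 0.10 in Dicer KO (interval 0.0038 to 0.19, adjusted p = 0.0988). The other cluster, 10385484, was at 11.73, 11.81 and 11.83 in WT cells, 11.82, 11.93 and 11.89 in Dgcr8 KO cells, and 11.87, 11.90 and 11.85 in Dicer KO cells. Its Dgcr8 KO values overlapped those of WT, and it passed in neither mutant (0.09, adjusted p = 0.218, and 0.08, adjusted p = 0.238). The platform annotation gives both clusters the same symbol. In its numbering, cluster 10392251 stands close to cluster 10392241 of the neighbouring gene Polg2, whereas 10385484 stands apart from the clusters of both neighbouring genes. Whether 1 of them draws on a near-identical copy elsewhere in the genome was not analysed. The rise of Ddx5 is uncertain to that extent. Between the mutants cluster 10392251 differed by 0.12 (adjusted p = 0.0611), which became 0.0401 without WT replicate 1, whereas SAM did not call its rise in Dgcr8 KO (0.145).

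Ddx17, the p72 helicase and closest relative of p68, is on chromosome 15. It was at 10.71, 10.77 and 10.77 in WT cells, 10.81, 10.90 and 10.81 in Dgcr8 KO cells, and 10.74, 10.76 and 10.75 in Dicer KO cells. Dicer KO lay within the range of WT, and the Dgcr8 KO arrays lay just above it. The ratio was 0.09 in Dgcr8 KO (interval -0.01 to 0.20, adjusted p = 0.189) and -0.0024 in Dicer KO (interval -0.11 to 0.10, adjusted p = 0.975). After a further quantile or cyclic loess normalization, Ddx17 and Ddx5 cluster 10385484 were called higher in Dgcr8 KO, with ratios of 0.16 to 0.17 and adjusted p of 0.00737 to 0.011.

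**Figure D2:**
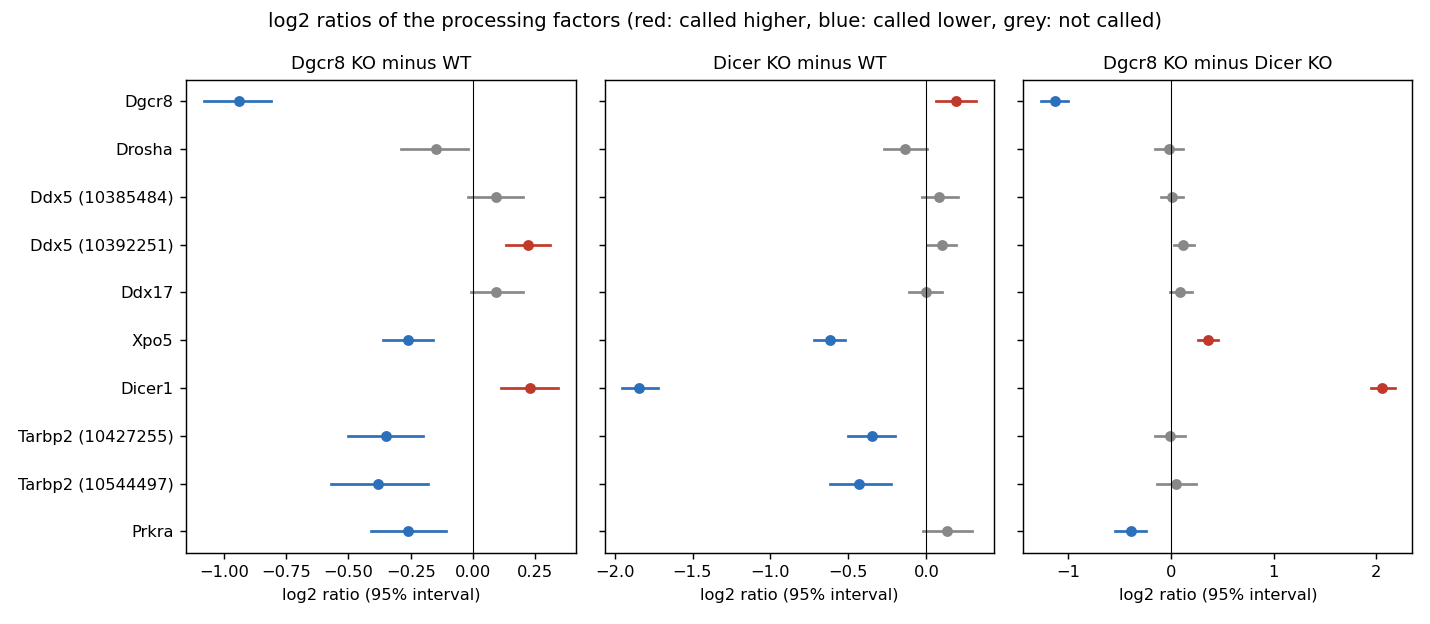
Log2 ratio (horizontal axes, a different range in each panel) of the 10 transcript clusters in Dgcr8 KO against WT, Dicer KO against WT and Dgcr8 KO against Dicer KO, with 95% intervals from the limma fit; red was called higher, blue lower and grey not called. The deleted genes lie farthest from 0 (-0.94 for Dgcr8 and -1.84 for Dicer1 against WT), and Xpo5 (-0.62 in Dicer KO) follows.

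Beyond the Microprocessor subunits, 24 genes of cofactors that bind primary transcripts or the Microprocessor were measured by 30 clusters. In Dgcr8 KO 2 clusters rose and 7 fell (median log2 ratio -0.02), and in Dicer KO 2 rose and 12 fell (median -0.11). The shares called higher were 6.67% in each mutant, against 15.7% and 17.8% of all transcripts, and those called lower were 23.3% and 40.0%, against 17.3% and 19.1%. Every cluster of Erh was called lower, at -0.41 to -0.37 in Dgcr8 KO and -0.23 to -0.22 in Dicer KO, so 1 gene enters the lower counts repeatedly. Ddx1 and Ddx3x are counted again among the DEAD-box helicases below, and Adar, Adarb1 and Dhx9 among the double-stranded RNA binding proteins. Taf15, an RNA-binding protein, fell by 0.87 in Dgcr8 KO (10.43 to 10.51 in WT, 9.47 to 9.74 in Dgcr8 KO, adjusted p = 9.36e-06) and was at -0.17 in Dicer KO (adjusted p = 0.0776), a difference of -0.70 between the mutants (adjusted p = 8.24e-05). Srrt, which encodes Ars2 and links the nuclear cap-binding complex to primary miRNA processing, showed the other order: its ratio was -0.02 in Dgcr8 KO (adjusted p = 0.823) and it fell by 0.40 in Dicer KO (adjusted p = 6.03e-05), and the mutants differed by 0.38 (adjusted p = 0.000192). The 2 clusters of Ddx3x, a DEAD-box helicase, were the risers in both mutants, at 0.51 and 0.62 in Dicer KO (adjusted p = 1.81e-05 and 3.84e-05) and 0.21 each in Dgcr8 KO (adjusted p = 0.00622 and 0.0248). The second of these Dgcr8 KO calls was lost without WT replicate 1 or 2 or Dgcr8 KO replicate 1 or 2 (adjusted p of 0.0612, 0.0886, 0.0656 and 0.0811). The count of cofactors called lower in Dicer KO was 7 with median centring and 4 by SAM.

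Ddx5 and Ddx17 were also set beside the other DEAD-box helicases, a family that unwinds RNA in ribosome assembly, splicing and export. Of 38 clusters from 33 genes, 19 fell and 5 rose in Dgcr8 KO (median -0.14), and 18 fell and 3 rose in Dicer KO (median -0.17). The shares called lower were 50.0% and 47.4%, beside 17.3% and 19.1% over all transcripts, and the shares called higher were 13.2% and 7.89%, beside 15.7% and 17.8%. Ddx21, a nucleolar helicase of ribosomal RNA synthesis, fell by 0.77 in Dgcr8 KO and fell by 0.59 in Dicer KO (adjusted p = 3.64e-06 and 1.56e-05). Ddx25, known from the testis, fell by 0.91 and fell by 1.07 (adjusted p = 6.72e-05 and 1.96e-05). Neither Ddx5 cluster nor Ddx17 was called lower in either mutant. SAM called 12 of the 38 lower in Dgcr8 KO, and cyclic loess and the fit without Dgcr8 KO replicate 2 moved the count called higher there to 8 and 3.

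Xpo5, on chromosome 17, was the factor outside the deleted genes with the largest difference from WT. Its level was 10.14, 10.15 and 10.19 in WT cells, 9.88, 9.90 and 9.90 in Dgcr8 KO cells, and 9.58, 9.54 and 9.48 in Dicer KO cells. The 3 genotypes did not overlap, with Dicer KO lowest and WT highest. It was at 83.4% of WT in Dgcr8 KO (ratio -0.26, interval -0.36 to -0.16, adjusted p = 0.00135) and at 64.9% in Dicer KO (ratio -0.62, interval -0.72 to -0.52, adjusted p = 4.23e-06). The mutants differed by 0.36 (interval 0.26 to 0.46, adjusted p = 0.000349). SAM did not call the fall in Dgcr8 KO (0.0803). The Mir693 hairpin within the gene has a cluster of its own, at 6.05, 5.84 and 5.74 in WT cells, 6.05, 5.68 and 5.87 in Dgcr8 KO cells, and 5.68, 5.78 and 5.32 in Dicer KO cells, with the 3 genotypes overlapping. All these values lay below the array medians of 6.486 to 6.564. Whether the cluster detects the hairpin was not tested, so the overlap does not show that it was unchanged.

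The other exportins and the genes of the Ran cycle, which loads and unloads them, were lower as well. Of 11 such genes 0 were called higher and 8 lower in Dgcr8 KO (median -0.23), and 0 higher and 10 lower in Dicer KO (median -0.29). Over all transcripts 15.7% and 17.8% were called higher in the respective mutants, and 17.3% and 19.1% lower. Rcc1, the exchange factor that makes Ran-GTP, fell by 0.57 in both mutants (adjusted p = 8.46e-06 and 7.06e-06). Xpot, the exportin for tRNA, fell by 0.43 in Dgcr8 KO and fell by 0.40 in Dicer KO (adjusted p = 0.000328 and 0.00048). Xpo7 and Xpo6 fell too, with ratios of -0.28 and -0.27 in Dgcr8 KO (adjusted p = 0.00173 and 0.00186) and of -0.41 and -0.33 in Dicer KO (adjusted p = 0.000129 and 0.000519). Xpo1, which exports proteins with a leucine-rich signal, was at -0.15 in Dgcr8 KO (adjusted p = 0.0848) and fell by 0.27 in Dicer KO (adjusted p = 0.00595). Rangap1, the Ran GTPase activator, fell by 0.19 in Dgcr8 KO (adjusted p = 0.0105) and was at -0.02 in Dicer KO (adjusted p = 0.741). Between the mutants the median of the 11 was 0.03, beside 0.36 for Xpo5. Quantile and cyclic loess normalization left 6 of the 11 called lower in Dgcr8 KO, SAM called 3, and 0 of the 11 changed by 1.5-fold or more in either mutant.

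Dicer1, on chromosome 12, encodes the cytoplasmic RNase III and is the deleted gene of the other mutant. Its level was 10.18, 10.18 and 10.23 in WT cells, 10.40, 10.47 and 10.39 in Dgcr8 KO cells, and 8.33, 8.43 and 8.32 in Dicer KO cells. All Dgcr8 KO arrays lay above all WT arrays, and the Dicer KO arrays lay far below both. In Dicer KO it was at 28.0% of WT (ratio -1.84, interval -1.95 to -1.72, adjusted p = 1.71e-08). In Dgcr8 KO, where the gene is intact, it was at 117% of WT (ratio 0.23, interval 0.11 to 0.34, adjusted p = 0.00641). The rise held without any 1 array (adjusted p of 0.00666 to 0.024), and SAM did not call it (0.133). Thus each mutant had a higher mean level of the gene deleted in the other, by 0.19 for Dgcr8 and 0.23 for Dicer1 on the log2 scale. The call for Dgcr8 was lost when any 1 WT or Dicer KO array was left out. Over all transcripts 17.8% were called higher in Dicer KO and 15.7% in Dgcr8 KO.

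Tarbp2, on chromosome 15, encodes Trbp, the partner that helps Dicer choose and hand over the duplex. Its cluster 10427255 was at 9.25, 9.17 and 9.33 in WT cells, 8.97, 8.88 and 8.84 in Dgcr8 KO cells, and 9.02, 8.86 and 8.83 in Dicer KO cells. The mutants overlapped each other, and both lay below every WT array. The ratio was -0.35 in each mutant (78.3% and 78.6% of WT, adjusted p = 0.00246 and 0.00251), and the difference between the mutants was -0.01 (interval -0.16 to 0.14, adjusted p = 0.957). The other cluster, 10544497, was at 8.55, 8.69 and 8.74 in WT cells, 8.27, 8.24 and 8.33 in Dgcr8 KO cells, and 8.41, 8.08 and 8.19 in Dicer KO cells. Its ratios were -0.38 and -0.43 (adjusted p = 0.00719 and 0.00322), so both clusters of Tarbp2 gave the same direction in both mutants. In the numbering of the platform, cluster 10427255 stands beside cluster 10427253 of the neighbouring gene Map3k12. Cluster 10544497 stands apart from the clusters of both neighbouring genes. Whether both clusters lie at the gene was not analysed, so they may not be 2 measures of the same transcript.

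Prkra, on chromosome 2, encodes Pact, the alternative partner of Dicer and an activator of the kinase Eif2ak2. Its level was 6.69, 6.82 and 6.76 in WT cells, 6.44, 6.57 and 6.48 in Dgcr8 KO cells, and 7.02, 6.85 and 6.80 in Dicer KO cells. The Dgcr8 KO arrays were below all others, and Dicer KO overlapped WT. The ratio was -0.26 in Dgcr8 KO (83.6% of WT, interval -0.41 to -0.11, adjusted p = 0.015) and 0.13 in Dicer KO (interval -0.02 to 0.29, adjusted p = 0.16). The mutants differed by -0.39 (interval -0.55 to -0.24, adjusted p = 0.00257), so Prkra, unlike Tarbp2, differed between them. The fall in Dgcr8 KO was not called without WT replicate 2 or Dgcr8 KO replicate 1 (ratio -0.23 and adjusted p of 0.0571 and 0.0577), nor by SAM (0.0967).

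In the direct contrast of Dgcr8 KO with Dicer KO, 2 of the 10 clusters were called higher (Xpo5 and Dicer1), against 11.2% of all transcripts, and 2 were called lower (Dgcr8 and Prkra), against 13.4%. Median centring turned this background from 2576 higher and 3082 lower to 1787 and 3762, or from 45.5% to 32.2% of calls being higher. Dicer1 and Dgcr8 are each deleted in 1 of the 2 lines of this contrast. A factor was also counted where 1 mutant stood apart from WT and from the other mutant, called in the same direction in both contrasts. For Dgcr8 KO this was so of Dicer1 among the higher (4.76% of all transcripts) and of Dgcr8 and Prkra among the lower (5.16%). For Dicer KO it was so of Dgcr8 among the higher (8.19%) and of Xpo5 and Dicer1 among the lower (5.67%). Since 1 contrast of Dicer1 in Dgcr8 KO and 1 of Dgcr8 in Dicer KO is against the line in which that gene is deleted, Prkra and Xpo5 were the factors so counted without a deletion in either contrast. The levels of Prkra lay near the array medians.

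After Dicer, the duplex is loaded into an Argonaute protein with the help of chaperones. Of 19 clusters from 12 genes of Argonaute loading and passenger strand removal, 2 rose and 5 fell in Dgcr8 KO (median -0.04), and 2 rose and 2 fell in Dicer KO (median -0.05). That is 10.5% higher and 26.3% lower in Dgcr8 KO (15.7% and 17.3% over all transcripts) and 10.5% each way in Dicer KO (17.8% and 19.1%). Ago1, of the Argonaute family, rose by 1.24 in Dgcr8 KO and by 0.98 in Dicer KO (adjusted p = 2.37e-07 and 6.16e-07). Tsn, a subunit of the C3PO nuclease that removes passenger strands, fell by 0.43 and fell by 0.29 (adjusted p = 0.000338 and 0.00362). Ptges3, the Hsp90 cochaperone p23, fell in Dgcr8 KO in each of its 3 clusters (ratios -0.53, -0.34 and -0.38, adjusted p = 0.00184, 0.000534 and 0.000654), which make up 3 of the 5 called lower there. The count called higher in Dgcr8 KO was 1 without Dgcr8 KO replicate 2. In Dicer KO the higher count of this list was 6 with cyclic loess and with median centring, and without WT replicate 1 the lower count was 5.

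Of 16 clusters from 15 genes that modify or degrade precursors and miRNAs, 2 rose and 4 fell in Dgcr8 KO (median 0.03), and 5 rose and 4 fell in Dicer KO (median 0.06). The shares called higher were 12.5% and 31.2%, with 15.7% and 17.8% of all transcripts, and the lower share was 1 in 4 in both, with 17.3% and 19.1% of all transcripts. Lin28a, which blocks let-7 precursors, fell by 2.97 in Dgcr8 KO and fell by 3.43 in Dicer KO (adjusted p = 5.82e-08 and 1.74e-08). Bcdin3d, a methyltransferase known to modify precursor ends, fell by 0.39 and fell by 0.66 (adjusted p = 0.000432 and 1.28e-05). Zc3h12a, an RNase that can cut terminal loops of precursors, was at 0.19 in Dgcr8 KO (adjusted p = 0.102) and rose by 0.54 in Dicer KO (adjusted p = 0.000386). Cyclic loess brought the count called higher in Dgcr8 KO to 4, and leaving out WT replicate 1 or 3 or Dgcr8 KO replicate 1 or 2 brought it to 1.

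Of 15 clusters from 14 other genes of double-stranded RNA binding proteins, the fold that Trbp, Pact and Dgcr8 share, 2 rose and 3 fell in Dgcr8 KO (median 0.06), and 3 rose and 3 fell in Dicer KO (median -0.08). These counts lay near the shares of all transcripts called, 15.7% and 17.8% higher and 17.3% and 19.1% lower. Eif2ak2, the RNA-activated kinase that Pact stimulates and Trbp inhibits, rose by 0.66 in Dgcr8 KO and by 0.99 in Dicer KO (adjusted p = 0.0028 and 0.000209). Stau1, the Staufen protein of mRNA transport and decay, rose by 0.31 and 0.47 (adjusted p = 0.00064 and 3.81e-05). Of the 2 clusters of Strbp, 10482181 fell by 0.37 in Dgcr8 KO (adjusted p = 0.00114) and fell by 0.20 in Dicer KO (adjusted p = 0.0304), the latter lost without any 1 of WT replicates 2 and 3 and the Dicer KO arrays (0.0629 to 0.0984). The other, 10482177, was called in neither mutant, at 0.09 and -0.15 (adjusted p = 0.413 and 0.14). Median centring left 0 of the 15 called lower in Dicer KO, as did leaving out Dicer KO replicate 1, and the count was 1 without WT replicate 2 or Dicer KO replicate 2.

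The neighbours of the factors on the chromosome were measured to set each factor beside its surroundings. Of 17 clusters of the nearest genes on each side, 1 was called higher and 6 lower in Dgcr8 KO, and 1 higher and 5 lower in Dicer KO, beside 15.7% and 17.3%, and 17.8% and 19.1%, of all transcripts. Kdelr3, a receptor that returns proteins to the endoplasmic reticulum, overlaps Ddx17 by 44 bases and differed most from WT among them. It was at 6.86, 7.17 and 7.04 in WT cells, 5.51, 6.07 and 6.38 in Dgcr8 KO cells, and 6.23, 6.21 and 6.15 in Dicer KO cells, with every mutant array below every WT array. It fell by 1.04 in Dgcr8 KO and fell by 0.83 in Dicer KO (adjusted p = 0.00161 and 0.00559), whereas Ddx17 was called in neither. Trmt2a, a tRNA methyltransferase gene, overlaps Dgcr8 by 825 bases at chr16:18248847-18254772 and fell by 0.54 in Dgcr8 KO and fell by 0.40 in Dicer KO, so in Dicer KO it and Dgcr8 had opposite directions. Polr1c, a subunit of RNA polymerases I and III that starts 321 bases beyond Xpo5, fell by 0.34 and fell by 0.40. Polh, 169 bases from the other end of Xpo5, was at -0.23 and -0.05 and was not called. Clmn, 11145 bases from Dicer1, rose by 0.30 in Dgcr8 KO and by 0.20 in Dicer KO, the latter not called without WT replicate 2 or Dicer KO replicate 1 or 2 (adjusted p of 0.0682, 0.0736 and 0.0596).

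Around Dgcr8, 26 clusters of 25 other genes lay within 500 kb of its ends. In Dgcr8 KO 2 were called higher and 5 lower, with ratios of -0.92 to 0.32, and in Dicer KO 4 higher and 8 lower, with ratios of -1.36 to 0.36. Without WT replicate 1 or Dicer KO replicate 2 the lower count in Dicer KO was 5. Prodh, a proline oxidase gene, was the lowest in both mutants. Around Dicer1, of 13 clusters of 13 other genes 2 were higher and 2 lower in Dgcr8 KO (-0.32 to 0.52), and 2 higher and 1 lower in Dicer KO (-0.30 to 0.81). The same shares of all transcripts stand beside these counts, and Clmn, higher in both mutants, was also counted among the neighbours. These counts around Dicer1 moved by 1 when WT replicate 2 or 3, any Dgcr8 KO array or any Dicer KO array was left out. None of these lay as far from 0 as Dicer1 in Dicer KO (-1.84), whereas Prodh at -0.92 in Dgcr8 KO lay close to Dgcr8 at -0.94.

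The transcripts with the pattern most like that of each factor were found by the root mean square difference of centred log2 profiles over the 9 arrays. Nearest to Dgcr8 were Ctsl (0.091) and Idi1 (0.0965), to Xpo5 Pmm1 (0.0299) and Rrp12 (0.0371), and to Dicer1 Pdpn (0.133) and Hunk (0.139). Rrp12, a ribosome assembly factor, was at -0.33 in Dgcr8 KO and -0.63 in Dicer KO. Nearest to Tarbp2 cluster 10427255 were Mapk6 (0.0413) and Timm22 (0.0418), to cluster 10544497 Polr1c (0.0559) and Bag2 (0.0612), and to Prkra Pnpla2 (0.0461) and Sft2d1 (0.0486). The distances are descriptions of these 9 arrays and carry no test.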

How the data were processed

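Affymetrix mouse gene ST arrays were hybridised with RNA of 3 ES cell genotypes. The deposited log2 values, 1 per transcript cluster and array, had been normalized by the authors. For this the methods name RMA and the processing notes name GCRMA, with no version given in the sources used here. How much background the normalized values still hold was not analysed. The number of arrays, 3 per genotype, limits the precision. Groups came from the sample labels. Symbols came from the platform annotation (35557 rows, 21789 with 1 symbol, 1621 with several). Positions and sequences came from RefSeq of GRCm38.p6, and 8 of 8 genes matched. Clusters without a symbol, miRNA-only (326), mitochondrial (7) and Y-linked (97) clusters were left out, which kept 22980. With R 4.3.3 and limma 3.58.1, the mean of each genotype was estimated from all 9 arrays, and 3 contrasts were tested with eBayes and Benjamini-Hochberg adjustment over all 22980. SAM with 20 label permutations, written anew, was an alternative. The scripts were tested on simulated data. RNAfold 2.7.2 gave folding energies.

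Named were the 8 genes, the 4 clusters of each related list with the smallest adjusted p in either mutant, the nearest gene on each side, the 2 nearest profiles of each factor that was called and differed by at least 0.3, and 4 marker genes. Not every gene so named is described. Xpo1, Rangap1, Erh, Prodh and the markers Utf1, Dppa4, Dab2, Gata4, Sox7, Krt18, Krt8, Cdx2 and Elf5 were added after their values were seen. The genes and lists were chosen with earlier results of these data known. Some genes of the related lists are not reported here.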

Additional observations from a re-analysis of the deposited data

How the results depend on the processing

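Each of 23 alternatives changed 1 choice. SAM, through its added constant, weighed mainly the size of the ratio in the contrasts with WT. Dgcr8 in Dgcr8 KO, Dicer1 and Xpo5 in Dicer KO, and Dgcr8 and Dicer1 between the mutants kept their direction and their call under all 23. SAM did not call Dgcr8 in Dicer KO (0.19) or, in Dgcr8 KO, Ddx5 cluster 10392251 (0.22), Xpo5 (-0.26), Dicer1 (0.23) and Prkra (-0.26), which left 0 clusters higher and 3 lower in Dgcr8 KO, 0 higher in Dicer KO, and 3 exportin and Ran cycle genes lower in Dgcr8 KO. A change of at least 1.5-fold removed these calls and those of Tarbp2 (-0.35 and -0.38 in Dgcr8 KO cells, -0.35 and -0.43 in Dicer KO cells) and, between the mutants, of Xpo5 (0.36) and Prkra (-0.39), which left 0 higher and 1 lower for Dgcr8 KO, 0 and 2 for Dicer KO, 1 and 1 between the mutants, and 0 exportin and Ran cycle genes in either mutant. A threshold of 0.01 removed Dgcr8 in Dicer KO (0.19) and Prkra in Dgcr8 KO (-0.26), and testing all rows of the table removed Dgcr8 in Dicer KO (0.19), so that 0 clusters were higher in Dicer KO under both. Calls were gained after repeated quantile normalization for Drosha in Dicer KO (-0.16), Ddx5 cluster 10385484 (0.17) and Ddx17 (0.16) in Dgcr8 KO, Ddx5 cluster 10392251 in Dicer KO (0.12) and between the mutants (0.16), and Ddx17 between the mutants (0.18). Cyclic loess gained the same Ddx5 and Ddx17 calls (0.16, 0.16, 0.12, 0.17 and 0.14), and under both normalizations 4 clusters were higher in Dgcr8 KO, 2 in Dicer KO and 4 between the mutants. Ddx5 cluster 10392251 was also gained in Dicer KO by median centring (0.14), a trended robust fit (0.10) and array weights (0.11), with 2 clusters then higher there, and between the mutants by the trended fit, array weights and leaving out the dimmest 25% (0.12 each). Drosha was gained in Dgcr8 KO by the trended fit (-0.15) and array weights (-0.19), in Dicer KO by array weights (-0.16), and in both by leaving out WT replicate 1 with Dgcr8 KO replicate 2 (-0.23 and -0.18). The ratio of Prkra was -0.33 without those 2 arrays. With 1 array left out at a time, Dgcr8 in Dicer KO ranged from 0.17 to 0.20, Prkra in Dgcr8 KO from -0.29 to -0.23, Drosha from -0.20 to -0.11 in Dgcr8 KO and from -0.18 to -0.10 in Dicer KO, Ddx5 cluster 10392251 between the mutants from 0.11 to 0.13, and the count of clusters higher in Dicer KO from 0 to 1. Ratios near 0 that were not called changed sign. Between the mutants these were Drosha (0.06 with quantile normalization, 0.03 with loess, -0.05 to 0.03 leaving out 1 array), Ddx5 cluster 10385484 (-0.04 with median centring, -0.0036 with array weights, -0.02 without WT replicate 1 and Dgcr8 KO replicate 2, -0.02 to 0.04 leaving out 1 array), Tarbp2 cluster 10427255 (0.06, 0.04 and 0.0013 with quantile, loess and those 2 arrays left out, -0.04 to 0.05 leaving out 1) and cluster 10544497 (-0.0016 with median centring, -0.02 to 0.14 leaving out 1), and in Dicer KO this was Ddx17 (0.01 with loess, 0.04 with median centring, -0.02 to 0.01 leaving out 1). The causes were not tested.

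The labels do not say whether arrays with the same replicate number belong together. Deviations of same-numbered arrays from their group means correlated at -0.199 to 0.344, and those of differently numbered arrays at -0.465 to 0.317. Not every array correlated best with its own number. Since the deviations of 3 arrays from their mean sum to 0, these correlations constrain each other and cannot settle whether the arrays were paired. With the replicate number as a block, the 10 clusters held 2 higher and 5 lower calls for Dgcr8 KO, 1 and 4 for Dicer KO, and no call of the 10 clusters changed. Over all transcripts the block gave 3613 higher and 3923 lower in Dgcr8 KO, beside 3612 and 3970. Requiring 1.5-fold left 1268 and 815 there, 1650 and 849 in Dicer KO, and 509 and 629 between the mutants.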
